A study of Bos taurus with 6 samples.

Results

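The miR-378 family was measured in extracellular vesicles (EVs) shed by bovine oviductal organoids, which are epithelial structures grown in a gel from cells of the oviduct. Its members were chosen by name alone, as the rows bta-miR-378, bta-miR-378b, bta-miR-378c and bta-miR-378d of the deposited miRNA table, which makes 4 of 1028 miRNAs. All 4 had reads, and each of the 6 libraries held reads of 3 or 4 of them. The table pairs 3 EV libraries from organoids kept at 37 °C with 3 from organoids that spent the final day of culture at 42 °C, a heat stress meant to resemble that of a cow in hot weather. The donors were cows at diestrus from an abattoir, and their ages were not given in the sources used here. No other treatment or allele was named for either group. Both shared a culture medium with growth factors and inhibitors, among them a TGFβ/Alk inhibitor. Each library, named replicate A, B or C, came from a pool of 2 animals. The same oviducts served both temperatures, but nothing states which libraries share animals.

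miR-378 lies within the gene for PGC-1β (PPARGC1B), a coactivator that drives genes of mitochondria and fatty acid oxidation, and is made from the same transcript. In mice it acts against that programme: it targets carnitine O-acetyltransferase (CRAT), an enzyme that handles acyl groups in mitochondria, and mice without it burn more fat. In muscle cells of mice it represses MyoR, an inhibitor of muscle differentiation. A miRNA directs Argonaute proteins to complementary sites in mRNAs, and the miRNAs carried by EVs come from the cells that shed the vesicles or from the fluid around them.

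The 4 names matched 5 genes in RefSeq (assembly ARS-UCD2.0), each on its own chromosome. bta-miR-378 has a pair of hairpin genes. MIR378-1 lies within PPARGC1B and MIR378-2 within CALCR, the calcitonin receptor gene, and reads of the shared mature miRNA cannot be divided between them. MIR378C lies within ZNF521, which encodes a zinc finger protein of the nucleus, and MIR378D within MSI2, which encodes an RNA-binding protein. MIR378B lies within no protein-coding gene of that annotation, and its neighbours are THY1 and NECTIN1, the genes of a pair of cell surface proteins. The mature members of the family are close in sequence, so a read with an error or an added base could have been counted under another member, which was not tested.

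The miRNA reads recovered per library ranged from 31640 to 213877, and 25.0% to 71.8% of them were of bta-miR-1246. The values are reads scaled to 1000000 (CPM) and adjusted by trimmed mean of M values (TMM), a scaling that centres most miRNAs, so that 1 read was worth 5.53 to 28.7 CPM, most in replicate C at 42 °C. The 11 epithelial miRNAs found in the table, of 12 listed, all had reads. So had all those listed for smooth muscle and stroma (7), erythroid cells (5), leukocytes (6) and liver (2), and 4 of 7 for skeletal and heart muscle. Having reads thus does not tell the source. bta-miR-200b, a keeper of the epithelial state, had 8044 ± 2133 CPM in the 37 °C group and 9132 ± 2738 CPM in the 42 °C group (SD, n = 3 in each group here and throughout). Replicate B at 42 °C, also the library with the most reads in all, stood apart in its erythroid and liver miRNAs. It held 49010 such reads, and the other libraries held 1169 to 9894. Per 1000000 reads other than bta-miR-1246 the gap was smaller. The erythroid list had 201230 there against 31660 to 91485 elsewhere, and the liver list 111561 against 18239 to 48718. In EVs, fewer vesicles from a kind of cell and less of a miRNA per vesicle cannot be told apart.

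bta-miR-378 was among the most abundant miRNAs of these EVs. At 37 °C it had 23112 CPM in replicate A, 28057 in replicate B and 48814 in replicate C. At 42 °C it had 37827 CPM in replicate A, 18662 in replicate B and 14991 in replicate C. The groups overlapped: replicate A at 42 °C lay above replicates A and B at 37 °C, while replicates B and C at 42 °C were the lowest of the 6. The means were 33328 ± 13638 CPM at 37 °C and 23827 ± 12263 CPM at 42 °C. These values rest on 1359, 4776 and 6607 reads from A, B and C of the 37 °C group and on 4759, 3373 and 522 at 42 °C. The spread between libraries, 40.9% of the mean at 37 °C and 51.5% at 42 °C, far exceeded what counting error alone gives, 1.66% and 2.21%.

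**Figure D1:**
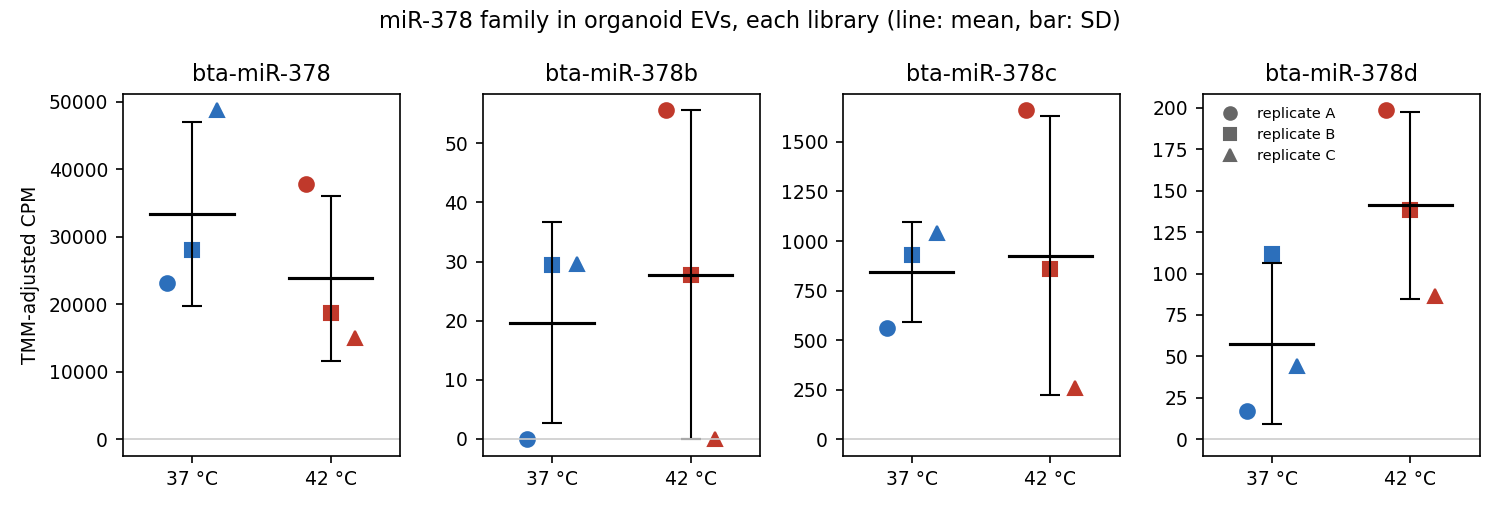
TMM-adjusted CPM of each member in each EV library, by culture temperature, with a scale of its own for each member; points are libraries, horizontal lines group means and bars SD (n = 3). For all 4 members the libraries at 37 °C and 42 °C overlap, and bta-miR-378 spans 14991 to 48814 CPM where bta-miR-378b stays at or below 55.6.

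By CPM bta-miR-378 ranked 5, 5 and 3 among all miRNAs in A, B and C of the 37 °C group and 5, 13 and 10 at 42 °C. By group mean it ranked 5 at 37 °C and 9 at 42 °C. Its neighbours at 37 °C were bta-let-7a-5p above it, with 38199 ± 11822 CPM, and bta-miR-451 below it, an erythroid miRNA, with 26116 ± 15501 CPM. At 42 °C they were bta-let-7i, with 25352 ± 11999 CPM, and bta-let-7f, with 19849 ± 3689 CPM; let-7 miRNAs restrain growth genes in differentiated cells. In each case the step to the neighbour was smaller than the SD of bta-miR-378 in that group.

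As a share of all miRNA reads, which does not use the TMM factors, bta-miR-378 took 4.30% (95% Wilson interval 4.08% to 4.52%), 3.18% (3.09% to 3.27%) and 4.72% (4.61% to 4.83%) in A, B and C of the 37 °C group. At 42 °C it took 4.58% (4.46% to 4.71%), 1.58% (1.53% to 1.63%) and 0.719% (0.660% to 0.783%). The share in replicate A at 42 °C lay within the range of the 37 °C libraries, and those in replicates B and C lay below that range. Intervals on reads cover counting error only, and may be too narrow even for that, since amplified reads are not independent molecules. With bta-miR-1246 left out of the total the shares were 5.73%, 6.36% and 9.36% at 37 °C and 7.67%, 2.15% and 2.55% at 42 °C, and replicates B and C at 42 °C were again the lowest. The lowest share of all reads was in replicate C at 42 °C, which had the highest share of bta-miR-1246. The lowest share of the other reads was in replicate B at 42 °C, which had the most erythroid and liver reads.

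**Figure D2:**
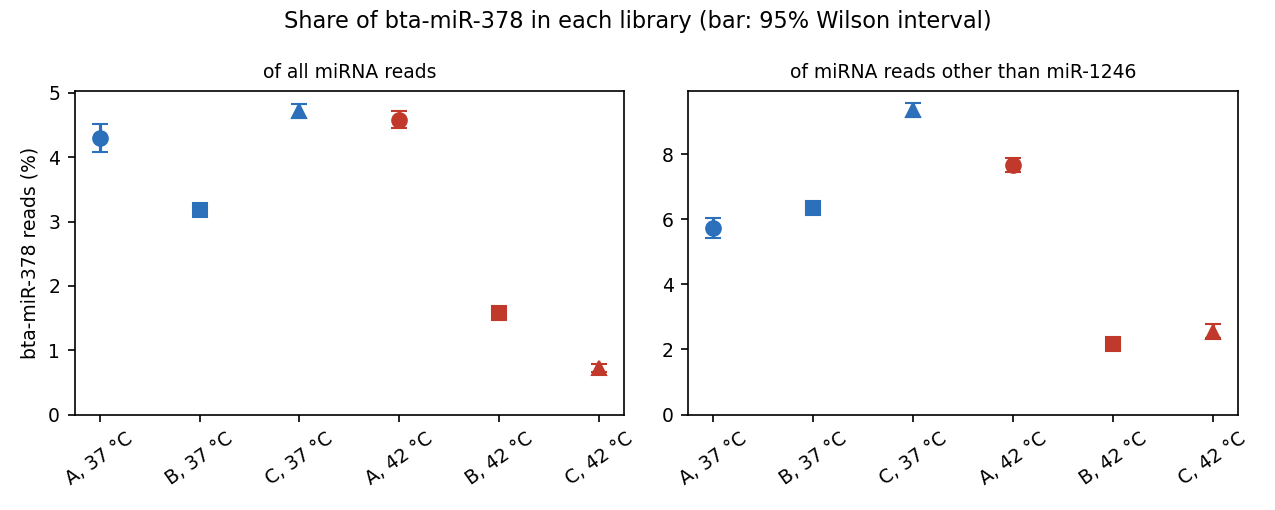
Share of bta-miR-378 in each library, as a percent of all miRNA reads (left) and of miRNA reads other than bta-miR-1246 (right); bars are 95% Wilson intervals. Replicates B and C at 42 °C, at 1.58% and 0.719% of all reads, lie below the 3 libraries at 37 °C, and replicate A at 42 °C, at 4.58%, lies among them.

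The question put to the 2 groups was whether heat stress of the organoids changed the make-up of the miRNA reads of their EVs. The values are relative and give no absolute load. For bta-miR-378 the log2 fold change of 42 °C against 37 °C, on the log2(CPM + 10) scale, was −0.53 (SE 0.52, limma, adjusted p = 0.64). Its 95% interval ran from −1.66 to 0.61, a fold of 0.316 to 1.52. With TMM, a fall to below 0.316 of the 37 °C level or a rise past 1.52 times was thus outside the interval. Smaller changes were not resolved by 3 libraries a group. These bounds hold for the TMM values only. With each library scaled to 1000000 instead, the log2 fold change was −1.21 (limma, adjusted p = 0.46). A miRNA counted as called if its adjusted p was below 0.05 and its change 2-fold or more. No member was, against 2.39% of all miRNAs tested (6 of 251, 4 higher and 2 lower at 42 °C). None of the 4 had an unadjusted p under 0.05, compared with 44 of the 251. On the recovered reads edgeR called none of the 4, and DESeq2 called none of the 3 to which it gave an adjusted p, as it gave none to bta-miR-378b. The CPM of 0 of 4 members kept the groups apart without overlap, while 24.3% of the tested miRNAs did (61 of 251, in either direction).

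bta-miR-378c, known mainly as a variant of miR-378 from a gene of its own, was a distant next in level. It had 561, 928 and 1042 CPM in A, B and C of the 37 °C group and 1661, 858 and 258 CPM at 42 °C. Both the highest and the lowest library were at 42 °C, with replicates A and C at the ends. The means were 844 ± 251 CPM at 37 °C and 926 ± 704 CPM at 42 °C, from 33, 158 and 141 reads and from 209, 155 and 9 reads. The log2 fold change was −0.18 (SE 0.60, 95% interval −1.49 to 1.13, limma adjusted p = 0.91). The mean CPM was higher and the mean log value lower at 42 °C, since replicate C, with 9 reads, weighs more on the log scale. Without that library the log2 fold change was 0.54.

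bta-miR-378d was scarcer. It had 17.0, 112 and 44.3 CPM in A, B and C of the 37 °C group, from 1, 19 and 6 reads. At 42 °C it had 199, 138 and 86.2 CPM, from 25, 25 and 3 reads. Only replicate B at 37 °C and replicate C at 42 °C made the groups overlap. The means were 57.7 ± 48.7 CPM and 141 ± 56.3 CPM. The log2 fold change of 1.35, the highest of the 4, did not pass the test (SE 0.77, 95% interval −0.30 to 3.01, unadjusted p = 0.10, limma adjusted p = 0.41). With 6 reads or fewer in 3 of the libraries, counting alone gives a spread of 35.7% of the mean at 37 °C and 28.4% at 42 °C.

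bta-miR-378b was at the edge of detection. It had 0, 5 and 4 reads in A, B and C of the 37 °C group and 7, 5 and 0 reads at 42 °C, or 0, 29.4 and 29.6 CPM and 55.6, 27.7 and 0 CPM. The library without a read at 37 °C, replicate A, allows up to 51.0 CPM (3 reads), and the one at 42 °C, replicate C, up to 86.2 CPM. The first limit lies above every other value of bta-miR-378b but the 55.6 CPM of replicate A at 42 °C, and the second lies above them all. The means were 19.6 ± 17.0 CPM and 27.8 ± 27.8 CPM, and the log2 fold change was 0.22 (SE 0.92, 95% interval −1.77 to 2.21, limma adjusted p = 0.94). A difference between temperatures was not detectable at this number of miRNA reads.

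**Figure D3:**
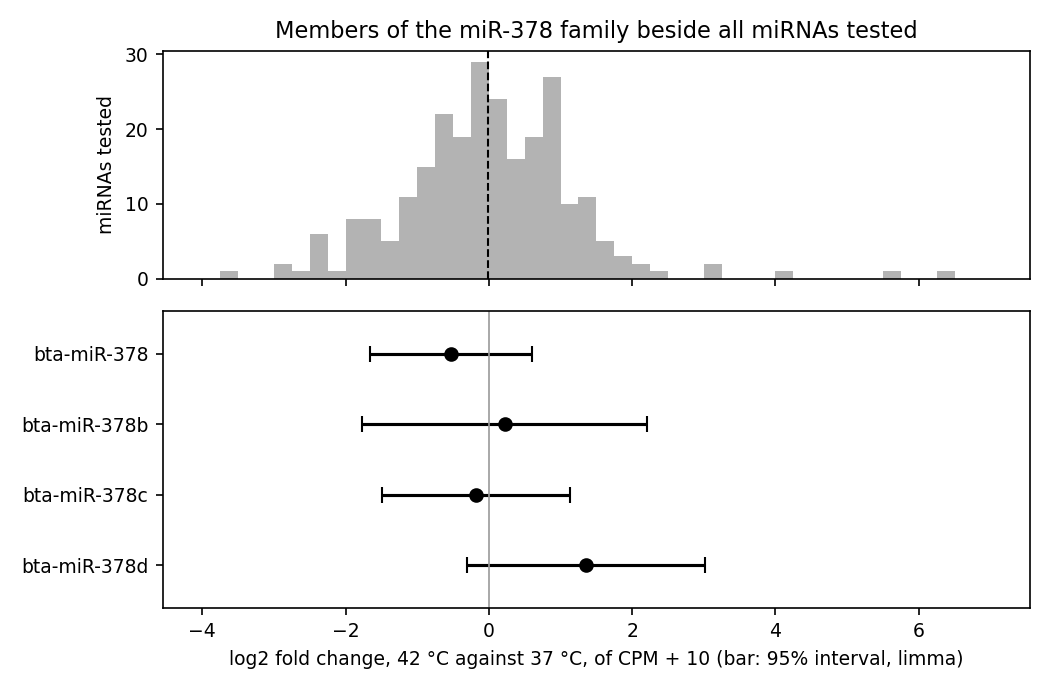
Log2 fold change of 42 °C against 37 °C for all 251 miRNAs tested (top, histogram, dashed line at the median of −0.01) and for the 4 members (bottom, points, with 95% intervals from limma). The interval of each member crosses 0, from −0.53 for bta-miR-378 to 1.35 for bta-miR-378d.

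In order of level the family ran bta-miR-378, bta-miR-378c, bta-miR-378d and bta-miR-378b at both temperatures. By group mean, bta-miR-378c ranked 60 and 57 among all miRNAs and bta-miR-378d 140 and 113 (37 °C first). bta-miR-378 exceeded bta-miR-378c in every library by more than the spread of either. bta-miR-378c exceeded bta-miR-378d in every library too, but by 9 reads to 3 in replicate C at 42 °C. bta-miR-378d had more reads than bta-miR-378b in all 6 libraries. Relative to bta-miR-378 the exact 95% intervals of these 2 members were apart in replicates A and B at 42 °C, with 25 reads against 7 and 25 against 5. They overlapped in the other 4 libraries, with 1 read against 0, 19 against 5 and 6 against 4 in A, B and C of the 37 °C group and 3 against 0 in replicate C at 42 °C. Over the 6 libraries the reads summed to 21396 for bta-miR-378, 705 for bta-miR-378c, 79 for bta-miR-378d and 21 for bta-miR-378b, which puts 96.4% of the family's reads in bta-miR-378. That percentage was 97.6, 96.3 and 97.8 in A, B and C of the 37 °C group and 95.2, 94.8 and 97.8 at 42 °C.

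The family as a whole therefore followed bta-miR-378. It took 4.40%, 3.30% and 4.83% of all miRNA reads in A, B and C of the 37 °C group and 4.82%, 1.66% and 0.736% at 42 °C. The means were 4.18% ± 0.787 and 2.41% ± 2.14, a difference of −1.77 percentage points that is given with no test. In size it is smaller than the SD at 42 °C, and larger than the SD at 37 °C and the pooled SD of 1.61. Without replicate C at 42 °C it was −0.94. With bta-miR-1246 left out of the total the means were 7.35% ± 1.96 and 4.31% ± 3.25. With the erythroid and liver miRNAs left out as well, a choice made after seeing the data, the shares were 6.35%, 7.29% and 11.1% at 37 °C and 8.48%, 3.30% and 2.76% at 42 °C. Replicates B and C at 42 °C thus stayed below all 37 °C libraries, and replicate A among them, on each of these totals.

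A ratio of members within a library does not use the scaling, though at few reads the 0.5 added to each count before logs makes it depend on depth. It was the measure on which bta-miR-378d parted the groups. Per 1000 reads of bta-miR-378 there were 0.736, 3.98 and 0.908 reads of bta-miR-378d in A, B and C of the 37 °C group and 5.25, 7.41 and 5.75 at 42 °C. Every library at 42 °C lay above every library at 37 °C. The exact 95% intervals of single libraries, which cover counting error only, were wide. They were 0.0186 to 4.11 for replicate A at 37 °C and 1.18 to 16.9 for replicate C at 42 °C. The interval of replicate B at 42 °C lay above those of replicates A and C at 37 °C. That of replicate A at 42 °C lay above that of replicate C at 37 °C. All other pairs of libraries between the groups overlapped. The mean log2 ratio differed by 1.98, or 3.94-fold, and by 2.13 with nothing added to the reads (exact permutation over libraries, two-sided, p = 0.1 and adjusted over the 3 ratios 0.3; with 3 libraries a group no p can be lower than 0.1). This ratio therefore did not pass the correction. The same was true of many miRNAs: all 42 °C ratios to bta-miR-378 exceeded all 37 °C ratios for 10.4% of those tested (26 of 250), and fell short of them for 5 of 250. Summed over libraries, 26 reads at 37 °C gave 2.04 per 1000 (1.33 to 2.99) and 53 reads at 42 °C gave 6.12 (4.58 to 8.02). These intervals cover counting error only and leave out the spread between libraries, so they do not test temperature. Replicate B alone gave 19 of the 26 reads at 37 °C.

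The ratio of bta-miR-378c was 24.3, 33.1 and 21.3 per 1000 reads of bta-miR-378 in A, B and C of the 37 °C group and 43.9, 46.0 and 17.2 at 42 °C. Replicates A and B at 42 °C were the highest of the 6, with intervals of 38.1 to 50.5 and 38.9 to 54.0, and replicate C at 42 °C was the lowest, with 7.84 to 33.0. The log2 ratio differed by 0.36 between groups (exact permutation p = 0.5, adjusted 0.5). That difference was 0.12 without replicate B and 0.79 without replicate C at 42 °C. For bta-miR-378b the ratio was 0, 1.05 and 0.605 per 1000 at 37 °C and 1.47, 1.48 and 0 at 42 °C, a difference of 1.03 in log2 (exact permutation p = 0.2, adjusted 0.3) that rests on 9 and 12 reads. In the 2 libraries without a read this log ratio is set by the 0.5 added and the reads of bta-miR-378 alone, and without replicate A at 37 °C the difference was 0.61.

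**Figure D4:**
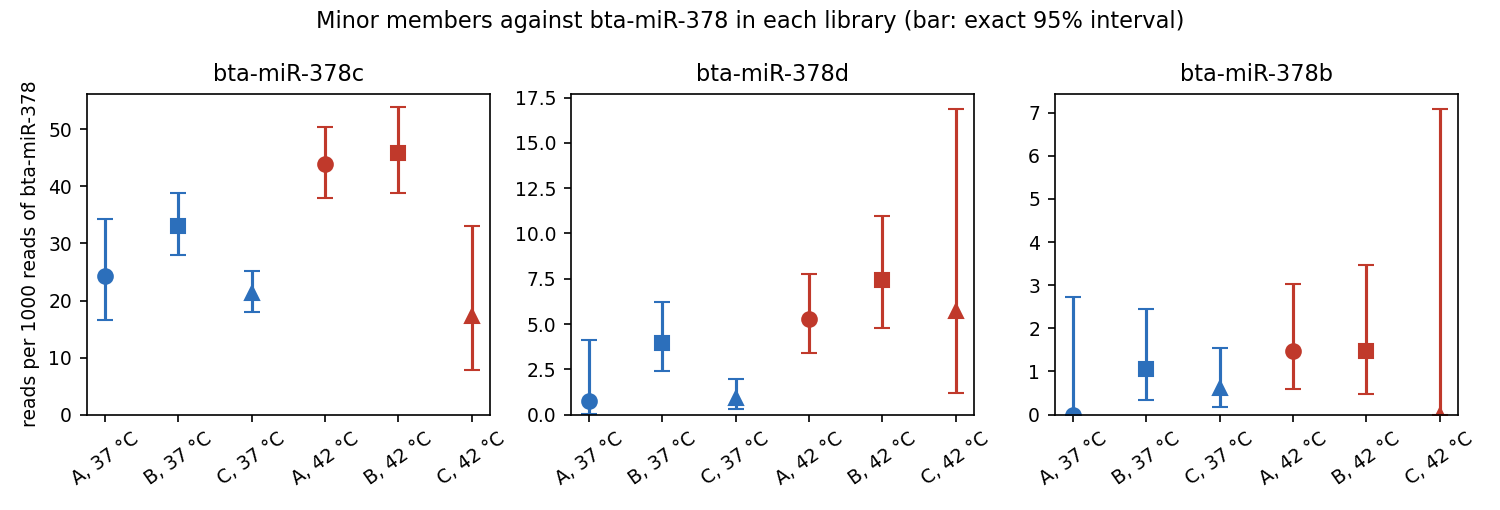
Reads of each minor member per 1000 reads of bta-miR-378 in each library, with a scale of its own for each member; bars are exact 95% intervals of counting error. The libraries at 42 °C, at 5.25 to 7.41 for bta-miR-378d, lie above those at 37 °C, at 0.736 to 3.98, while bta-miR-378c and bta-miR-378b overlap.

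The miRNAs whose pattern over the 6 libraries was most like that of bta-miR-378 were found by the SD of their log2 ratio to it, among 83 others with at least 10 reads in every library. That SD was 0.33 for bta-miR-186, 0.37 for bta-let-7d and 0.37 for bta-miR-11987, against a median of 0.97 and a highest value of 2.76. bta-miR-186 had 39, 138 and 191 reads in A, B and C of the 37 °C group and 99, 108 and 22 at 42 °C, so that 23.7 to 48.1 reads of bta-miR-378 went with each of its own. bta-let-7d had 57, 207 and 181 reads and then 134, 159 and 25, with 20.9 to 36.5 reads of bta-miR-378 to 1. bta-miR-11987, for which no role is given here, had 48, 255 and 433 reads and then 245, 174 and 39, with 13.4 to 28.3 to 1. The points share their libraries, depth and scaling, and counting alone would give an SD of 0.15 to 0.19 for these 3. The other members had too few reads to enter that comparison: the SD was 0.56 for bta-miR-378c, where counting gives 0.24, and 1.31 for bta-miR-378d, where counting gives 0.66. For bta-miR-378b it was 0.82, below the 1.28 that counting gives.

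Of 20 other miRNAs listed for their known parts in the handling of lipids and glucose, in mitochondria or in brown fat, 19 were in the table, 17 had reads and 16 were tested. None was called at 42 °C against 37 °C. Their log2 fold changes ran from −1.17 to 0.99, 8 above and 8 below 0, with a median of −0.02 beside −0.01 over all miRNAs tested and 0.02 over the 4 members. The most abundant of them were bta-miR-26a, a regulator of insulin signalling and lipid synthesis in mouse liver, with 16337 ± 3936 CPM at 37 °C and 19315 ± 4333 CPM with heat, and bta-miR-27b, an inhibitor of fat cell differentiation, with 2829 ± 665 and 3463 ± 400 CPM. bta-miR-378 had more than either at both temperatures by mean, with libraries at 42 °C that overlapped those of bta-miR-26a.

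Markers of other cells were measured beside the family, because miR-378 is abundant in muscle, heart and liver as well. Of 7 miRNAs of skeletal and heart muscle 4 had reads and 3 were tested, and none was called. Their summed level per 1000000 reads other than bta-miR-1246 was 3118 to 3714 at 37 °C and 2138 to 8837 at 42 °C. bta-miR-206, found in skeletal muscle, had 548 ± 147 and 1750 ± 1390 CPM, and bta-miR-1 had 990 ± 372 and 1247 ± 546 CPM. The log2 fold changes of the 3 tested were 1.40 (bta-miR-206), 0.33 (bta-miR-1) and −0.66 (bta-miR-499). The liver list, bta-miR-122 and bta-miR-885, summed to 35530 to 48718 at 37 °C and 18239 to 111561 at 42 °C, highest in replicate B. The erythroid list summed to 35227 to 91485 and 31660 to 201230, again highest in replicate B, where bta-miR-451 had 28903 reads. The 7 miRNAs of smooth muscle and stroma, led by bta-miR-143, summed to 6306 to 19383 and 7142 to 23533, the epithelial list to 33811 to 50253 and 17704 to 60065, and none of these lists held a called miRNA. Of the leukocyte list 1 of 5 tested was called, bta-miR-150, a lymphocyte miRNA, higher at 42 °C, and the list summed to 3557 to 4593 and 6223 to 22703. The epithelial sum and the share of bta-miR-378 on the same total were both highest in replicate A and lowest in replicate B at 42 °C. At 37 °C their orders differed: the epithelial sum was highest in replicate B and lowest in replicate C, and the share was highest in replicate C and lowest in replicate A. The part of any of these in the values of the family was not tested.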

How the data were processed

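Small RNA libraries were made from EVs isolated by ultracentrifugation and size exclusion. In CLC Genomics Workbench the authors trimmed reads, matched them to bovine miRBase entries and applied TMM; the deposited signal, TMM-adjusted CPM, covers 1028 miRNAs. Also named in the submitters' processing notes are bcl2fastq, Bowtie2 2.2.2, DESeq2 and ARS-UCD1.2, without roles. All 6 columns were used, and none sums to 1000000. Every value was a whole multiple of the lowest value above 0 (100%, tolerance 0.01), so reads were recovered, 31640 to 213877 per library.

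The test was that of limma 3.58.1 (R 4.3.3), run on log2(CPM + 10) without a block and with a trend of variance on level. P-values were adjusted by Benjamini-Hochberg over 251 miRNAs, those whose mean reached 10 CPM in either group. The model of the methods, a negative binomial GLM, needs counts. edgeR 4.0.16 (11 calls) and DESeq2 1.42.0 (17 calls) were run on the recovered reads, beside other pseudocounts, filters, scalings, weights, a replicate block and each library left out. Steps were tested on simulated data. Ratios added 0.5 reads. Named were the members, the neighbours of bta-miR-378 in rank, the 3 miRNAs most like it and bta-miR-1246. Of each list at least 1 of the 2 most abundant was named, and of the muscle list bta-miR-499 as well. The members and lists were chosen with earlier results of these data known. P-values rest on the spread between libraries, which joins that between pools of animals with that of EV isolation, library preparation and depth. The main test did not pair libraries that may share oviducts.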

Additional observations from a re-analysis of the deposited data

How the results depend on the processing

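No member was called under any of 17 alternatives, though bta-miR-378b had an adjusted p in 15 of them only: it was not tested at a minimum of 100 CPM, and DESeq2 gave it none. The adjusted p ran from 0.43 to 0.89 for bta-miR-378, 0.67 to 1.00 for bta-miR-378b, 0.48 to 1.00 for bta-miR-378c and 0.27 to 0.73 for bta-miR-378d. bta-miR-378 stayed below 0 in all, from −1.21 to −0.21 in log2, and bta-miR-378d above 0, from 0.81 to 1.91. Signs turned for the others. bta-miR-378c was at 0.14 with edgeR and 0.14 with DESeq2, and between −0.78 and 0.54 with 1 library left out. bta-miR-378b was between −0.44 and 0.99 with 1 left out, and at −0.36 without replicate A at 42 °C. Scaling each library to 1000000 moved the median of all miRNAs from −0.01 to −0.57. Relative to it the members stood at −0.64 (bta-miR-378), 0.78 (bta-miR-378b), −0.27 (bta-miR-378c) and 1.38 (bta-miR-378d), beside −0.51, 0.23, −0.17 and 1.37 with TMM.

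The share of the family differed by −3.41 percentage points with bta-miR-1246 and the erythroid and liver miRNAs left out, a total chosen after seeing the data. On that smaller total every share is larger, with means of 8.26% and 4.85%. Its points are therefore not on the scale of the −1.77 found on all reads. On all reads the difference was −2.98 to −0.94 with 1 library left out. The log2 ratio to bta-miR-378 differed by 1.61 to 2.64 for bta-miR-378d, 0.12 to 0.79 for bta-miR-378c and 0.61 to 1.43 for bta-miR-378b with 1 left out. Same letters did not deviate together (correlations −0.06, 0.03 and −0.06). With a replicate block 0 members were called, and 15 miRNAs in all in place of 6. Over all miRNAs the calls numbered 20 at a sum of 1000000, 15 with bta-miR-1246 also left out, 10 at a minimum of 100 CPM, 10 without the trend, 11 with library weights, 11 with edgeR, 17 with DESeq2 and 1 to 9 with 1 library left out, fewest without replicate B (1) or C (3) at 37 °C. The low number of miRNA reads limits bta-miR-378b and bta-miR-378d most.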
